A study of Mus musculus with 8 samples.

Results

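The 45 genes described here encode the machinery that copies DNA in S phase and the regulators that start it. They were taken from a fixed list of names, as the probe sets whose platform annotation gave 1 gene symbol and that symbol was on the list. The list was chosen with earlier results of these data known, and no filter on measured values was applied to it. All 45 were measured, of 19938 genes in the table, and all 45 had a mean level above the median gene. For the 3 members with 2 probe sets each, Pcna, Tk1 and Slbp, the brighter one was used.

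The cells were mouse c-Kit-positive bone marrow cells carrying floxed alleles of Runx1 and Cbfb. They were transduced with MLL-AF9, a leukaemia fusion gene that keeps myeloid progenitors dividing, and with the recombinase CreERT2, linked to puromycin resistance, which acts on floxed alleles once 4-hydroxytamoxifen (4OHT) binds it. The group labelled Runx1Cbfb-KO received 4OHT at 1 µM for 24 h and the Control group received ethanol for the same time, both in cytokine-containing methylcellulose (M3434). Each group held 4 arrays, from 2 clones with replicate numbers 1 and 2. A set is the KO-labelled and the Control culture of the same clone and number, so there were 4 sets. Control cells carried the same floxed alleles, MLL-AF9 and CreERT2, and no culture of cells without the floxed alleles received 4OHT, so effects of the drug and of active Cre cannot be told apart from those of the deletion. All results come from 2 clones, and p-values of the KO-labelled minus Control change measure the spread between these sets.

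The check of the targeted genes limits how the label can be read. Runx1 signal averaged 10.82 ± 0.28 on KO-labelled arrays and 10.30 ± 0.30 on Control arrays (log2, SD, n = 4 each), a difference of 0.52 ± 0.04 (SE, n = 4 sets; limma adjusted p = 1.64e-05) in the direction opposite to a loss. Cbfb signal averaged 9.75 ± 0.13 on KO-labelled arrays and 9.93 ± 0.08 on Control arrays, a difference of -0.18 ± 0.05 that did not pass (limma adjusted p = 0.128). Each gene had 1 probe set that averages over the transcript, and whether its probes lie in the deleted exons was not analysed here. Directions below follow the label.

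Replication begins when the origin recognition complex, Cdc6 and Cdt1 load the MCM helicase onto DNA in G1. Cyclin E and the kinase pair Cdc7 and Dbf4 then switch the helicase on with Cdc45 and the GINS complex, and polymerases, the sliding clamp PCNA and its RFC loader copy the strands. Many of these genes are transcribed in late G1 by E2F factors, so their RNA follows the share of cells that are entering S phase. In blood progenitors RUNX1 has been described as favouring the step from G1 to S. In cultures such as these, fewer cells in S phase and less RNA per cell cannot be told apart.

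The E2F element is the promoter feature these genes are best known to share, and it is shown first for that reason. RefSeq promoter sequences (GRCm38.p6) were found for 38 of the 45 members. In the 250 bases before the annotated start, 9 of the 38 (23.7%) held TTTCCCGC, TTTCGCGC, TTTGGCGC or TTTGCCGC on either strand, against 2.16% of 27025 genes searched the same way. The 9 were Cdc6, Gins3, Mcm5, Mcm6, Mcm7, Orc1, Pola1, Rfc3 and Uhrf1. The CCAAT box (CCAAT on either strand) was held by 23 of 38 (60.5%), against 37.5% of genes, and the core letters of RUNX sites, TGTGGT or TGCGGT on either strand, by 11 of 38 (28.9%), against 20.9%. These are matches of letters and not measured binding, and the start sites are those of the annotation. The genes searched were not matched to the members for base composition, and a gene with several promoters was counted if any of them matched. In 5 of the promoters below, capitals mark the E2F matches, which overlap each other on opposite strands in Mcm5 and Mcm6. Orc1 and Rfc3 are included because their sets differed most by replicate number.
Mcm5 (chr8:75109326-75109397, plus strand): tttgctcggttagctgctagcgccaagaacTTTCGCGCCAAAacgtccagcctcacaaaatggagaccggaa
Mcm6 (chr1:128359778-128359845, minus strand): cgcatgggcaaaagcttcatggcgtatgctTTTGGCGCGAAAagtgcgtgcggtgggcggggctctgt
Cdc6 (chr11:98907983-98908050, plus strand): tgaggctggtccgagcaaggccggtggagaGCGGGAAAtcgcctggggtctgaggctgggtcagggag
Orc1 (chr4:108579397-108579453, plus strand): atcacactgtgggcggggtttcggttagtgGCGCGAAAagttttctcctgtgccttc
Rfc3 (chr5:151651209-151651248, minus strand): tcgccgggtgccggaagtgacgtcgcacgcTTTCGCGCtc

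The first comparison asked whether replication genes differed after 24 h of 4OHT. None did by the test used: 0 of 45 members passed in the paired limma fit, where 0.953% of all genes passed. At an unadjusted p under 0.05 the count was 3 (E2f1, Mcm2 and Ccne1), or 6.67% of members against 6.47% of all genes. Fitted changes ran from -0.13 for E2f1 to 0.09 for Ccne1 on the log2 scale, which is 0.916-fold to 1.07-fold. The 95% intervals of the 45 members, not adjusted for their number, all lay between 0.837-fold and 1.14-fold. The median member change was -0.03, beside 0.00018 over all genes, and without the set of clone 2, replicate 2, it was 0.0013. The fitted change was below 0 in 31 members and above 0 in 14, or 68.9% below 0 against 49.9% of all genes.

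**Figure D1:**
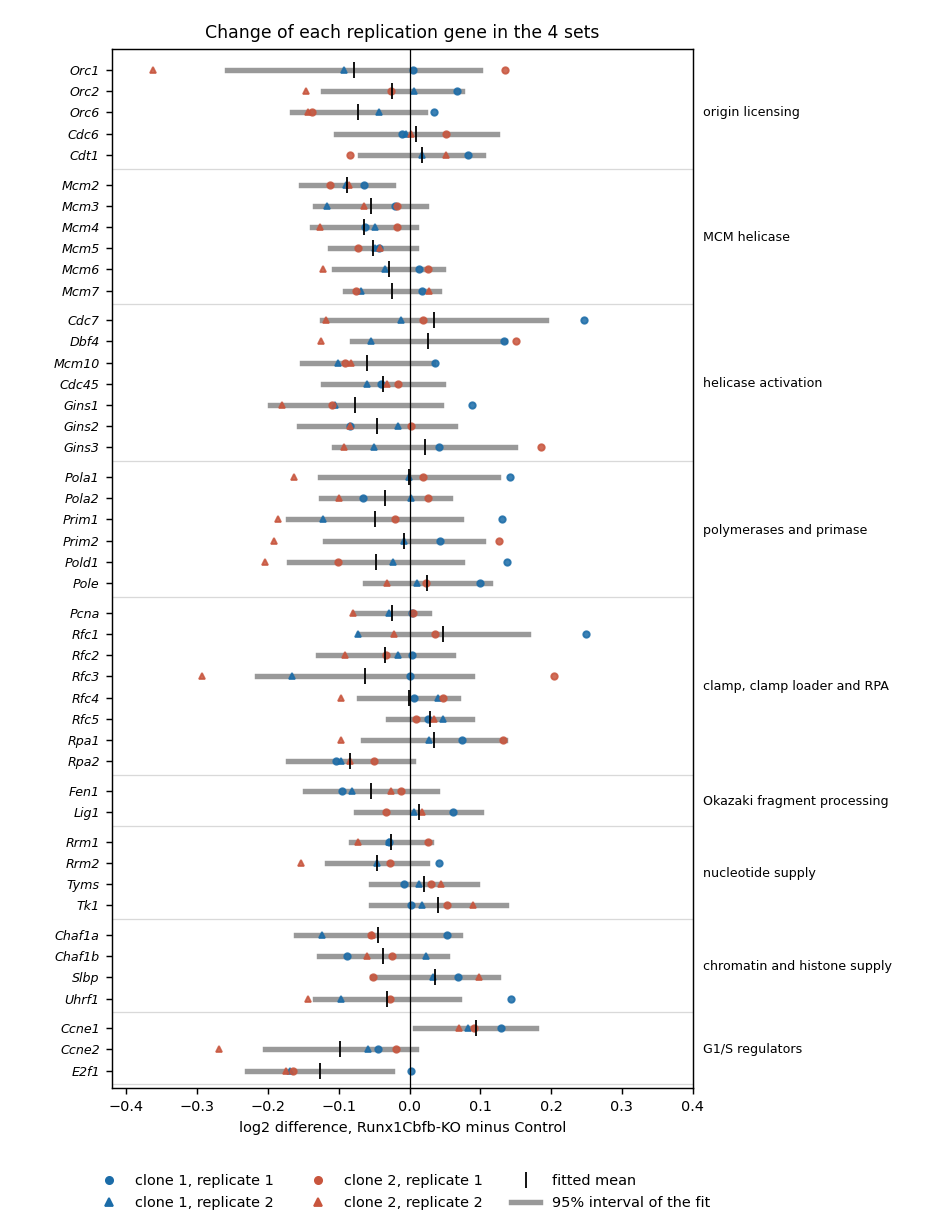
Log2 difference (KO-labelled minus Control, x axis) for each of the 45 replication genes, grouped by role from top to bottom. Coloured symbols are the 4 sets, the black tick is the fitted mean and the grey bar its 95% interval. The fitted means lie between -0.13 and 0.09, and only the bars of Mcm2, Ccne1 and E2f1 leave out 0.

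The groups of 4 KO-labelled and 4 Control arrays overlapped for every member, where 1.17% of all genes had groups that did not. In all 4 sets, 8 members were lower in the KO-labelled culture (17.8%, against 6.51% of all genes) and 3 were higher (6.67%, against 6.63%). The 8 were Mcm2, Mcm3, Mcm4, Mcm5, Cdc45, Rpa2, Fen1 and Ccne2, and the 3 were Rfc5, Tk1 (by the brighter of its 2 probe sets) and Ccne1. Such shares were not computed over genes above the median level, the range in which all members lie. Values for each role follow, with arrays in the order clone 1 replicate 1, clone 1 replicate 2, clone 2 replicate 1 and clone 2 replicate 2, as log2 levels that can be compared between arrays for 1 gene but not between genes.

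Origin licensing proteins choose and prepare the sites where copying starts. Orc6, a subunit of the origin recognition complex, had the smallest p of the 5 genes in this role. It measured 10.28, 10.27, 10.13 and 10.14 on KO-labelled arrays, against 10.25, 10.31, 10.27 and 10.28 on Control arrays. The clone 1 values overlapped, the clone 2 values were lower with 4OHT, and the fitted difference was -0.07 ± 0.04 (SE, n = 4 sets). Orc1, an ATP-binding subunit that appears before S phase, measured 8.03, 7.81, 8.07 and 7.67 on KO-labelled arrays, against 8.03, 7.90, 7.93 and 8.03 on Control arrays. Its sets went both ways, from -0.36 to 0.13, and its SE of 0.08 was the largest among members (difference -0.08). The loader Cdc6 stood at 0.01 ± 0.05, its partner Cdt1 at 0.02 ± 0.04 and the subunit Orc2 at -0.02 ± 0.05.

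The MCM genes encode the 6 subunits of the ring helicase that unwinds DNA, and all 6 had fitted differences below 0. Mcm2 had the smallest p of all 45 members. It measured 11.06, 11.14, 11.18 and 11.23 on KO-labelled arrays, against 11.13, 11.23, 11.29 and 11.32 on Control arrays. Each KO-labelled array was lower than its own Control by 0.06 to 0.11, while arrays of different sets overlapped, and the difference of -0.09 ± 0.03 (0.941-fold, 95% interval -0.15 to -0.02) did not pass (limma adjusted p = 0.371). Mcm4 (-0.06 ± 0.03), Mcm3 (-0.06 ± 0.04) and Mcm5 (-0.05 ± 0.03) were lower in 4 of 4 sets without passing. Mcm6 (-0.03 ± 0.04) and Mcm7 (-0.02 ± 0.03) were lower in 2 of 4. The median over the 6 was -0.05.

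Helicase activation turns the loaded ring into a moving fork. Mcm10, which acts when the loaded helicase is switched on, had the smallest p of the 7 genes here, with 10.06, 10.05, 10.08 and 10.01 on KO-labelled arrays, against 10.03, 10.15, 10.17 and 10.10 on Control arrays. It was higher in the first set by 0.04 and lower in the other 3, with a fitted difference of -0.06 ± 0.04. Cdc45, which rides with the helicase, stood at -0.04 ± 0.04 with all 4 sets below 0. The GINS subunits Gins1 (-0.08 ± 0.06), Gins2 (-0.05 ± 0.05) and Gins3 (0.02 ± 0.06) and the kinase gene Cdc7 (0.03 ± 0.07) did not pass. Dbf4, the activating subunit of Cdc7, measured 10.57, 10.25, 10.37 and 10.17 on KO-labelled arrays, against 10.44, 10.30, 10.22 and 10.30 on Control arrays, so that the sets of number 1 were above 0 and those of number 2 below.

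Among polymerases and primase, Prim1, the catalytic primase subunit, measured 9.62, 9.30, 9.64 and 9.58 on KO-labelled arrays, against 9.49, 9.42, 9.66 and 9.77 on Control arrays. Its difference was -0.05 ± 0.06, and the first set opposed the others. Pold1, the catalytic subunit of the lagging-strand polymerase delta, measured 9.67, 9.72, 9.54 and 9.49 on KO-labelled arrays, against 9.53, 9.74, 9.65 and 9.69 on Control arrays. It stood at -0.05 ± 0.06, with clone 1 at 0.06 and clone 2 at -0.15. The catalytic subunit of the leading-strand polymerase epsilon, Pole, stood at 0.03 ± 0.04. Pola1 (-0.000625 ± 0.06) and Pola2 (-0.03 ± 0.04), of the polymerase that extends primers, and Prim2 (-0.00785 ± 0.05), the large primase subunit, did not pass.

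The sliding clamp Pcna, which tethers polymerases to DNA, had the smallest SE of all members. It measured 12.24, 12.19, 12.21 and 12.16 on KO-labelled arrays, against 12.23, 12.22, 12.20 and 12.24 on Control arrays. The difference was -0.03 ± 0.02, with a 95% interval of -0.08 to 0.03. Rpa2, a subunit of the complex that coats single-stranded DNA, measured 10.03, 9.85, 9.98 and 9.99 on KO-labelled arrays, against 10.14, 9.95, 10.03 and 10.07 on Control arrays. It was lower in every set, at -0.08 ± 0.04, and did not pass (limma adjusted p = 0.842), while Rpa1, the largest subunit, stood at 0.03 ± 0.05.

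The clamp loader genes Rfc2 (-0.03 ± 0.04), Rfc4 (-0.00105 ± 0.03) and Rfc5 (0.03 ± 0.03) did not pass. Rfc1, the large loader subunit, measured 9.96, 9.73, 9.76 and 9.76 on KO-labelled arrays, against 9.71, 9.80, 9.72 and 9.78 on Control arrays. Its difference of 0.05 ± 0.06 came mostly from the first set, at 0.25. Rfc3, a small loader subunit, measured 9.85, 9.22, 9.43 and 9.06 on KO-labelled arrays, against 9.85, 9.39, 9.22 and 9.36 on Control arrays. Its sets ran from -0.29 to 0.20, and the fitted difference was -0.06 ± 0.07.

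Fen1, the nuclease that trims Okazaki fragments, measured 9.94, 9.81, 9.78 and 9.82 on KO-labelled arrays, against 10.03, 9.89, 9.79 and 9.84 on Control arrays. It was lower in every set by 0.01 to 0.10 (difference -0.05 ± 0.04), and Lig1, the ligase that seals the fragments, stood at 0.01 ± 0.04.

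No gene for nucleotide supply passed. Rrm2, the small subunit of ribonucleotide reductase made in S phase, measured 11.88, 11.58, 11.67 and 11.45 on KO-labelled arrays, against 11.84, 11.62, 11.70 and 11.60 on Control arrays. The arrays of replicate number 1 were the higher ones in each clone and group, and the KO-labelled minus Control difference was -0.05 ± 0.03. Tk1, the cytosolic thymidine kinase, measured 9.66, 9.66, 9.75 and 9.94 on KO-labelled arrays, against 9.66, 9.65, 9.70 and 9.85 on Control arrays. It was higher in every set by up to 0.09 (difference 0.04 ± 0.04) by its brighter probe set, and with its 2 probe sets averaged the difference was -0.0056. Rrm1, the large reductase subunit, stood at -0.03 ± 0.03 and Tyms, the thymidylate synthase, at 0.02 ± 0.04.

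Chaf1b, a subunit of the complex that places new histones behind the fork, measured 10.11, 10.02, 10.05 and 10.00 on KO-labelled arrays, against 10.19, 9.99, 10.07 and 10.06 on Control arrays. The difference was -0.04 ± 0.04. Its partner Chaf1a (-0.04 ± 0.05), Uhrf1, which guides DNA methylation onto new strands (-0.03 ± 0.05), and Slbp, which binds histone mRNA stem-loops (0.04 ± 0.04), did not pass.

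The 3 regulators of S phase entry had the widest range of changes. E2f1, the transcription factor that drives many of these genes, measured 9.80, 9.84, 9.57 and 9.79 on KO-labelled arrays, against 9.80, 10.01, 9.74 and 9.97 on Control arrays. The first set stood at 0.0024 while the others were at -0.16 to -0.18, and the fitted difference of -0.13 ± 0.05 did not pass (limma adjusted p = 0.506). Ccne1, a cyclin E gene and the activating partner of Cdk2, measured 10.30, 10.07, 10.22 and 10.30 on KO-labelled arrays, against 10.17, 9.99, 10.13 and 10.23 on Control arrays. It was higher in every set by 0.07 to 0.13 (difference 0.09 ± 0.04, limma adjusted p = 0.654).

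The other cyclin E gene, Ccne2, measured 10.09, 10.04, 10.10 and 9.65 on KO-labelled arrays, against 10.13, 10.10, 10.12 and 9.92 on Control arrays. It was lower in every set, with the clone 2, replicate 2 cultures below all others in both groups, and its difference was -0.10 ± 0.05 (limma adjusted p = 0.870). The cyclin E genes lay on opposite sides of 0 in 4 of 4 sets, without either passing.

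Several of these fitted differences rest on 1 set. Without clone 2, replicate 2, the value was -0.04 for Ccne2, -0.01 for Rrm2, -0.0072 for Pcna and -0.0042 for Prim1, and it lay above 0 for Orc1 (0.02), Rfc3 (0.01) and Pold1 (0.0043). Without clone 1, replicate 1, it was below 0 for Rfc1 (-0.02) and Dbf4 (-0.0096), and further below 0 for Pold1 (-0.11), Prim1 (-0.11), Mcm10 (-0.09) and Rrm2 (-0.08). Without clone 2, replicate 1, it was -0.15 for both Orc1 and Rfc3, and -0.02 for Dbf4. None of these passed.

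**Figure D2:**
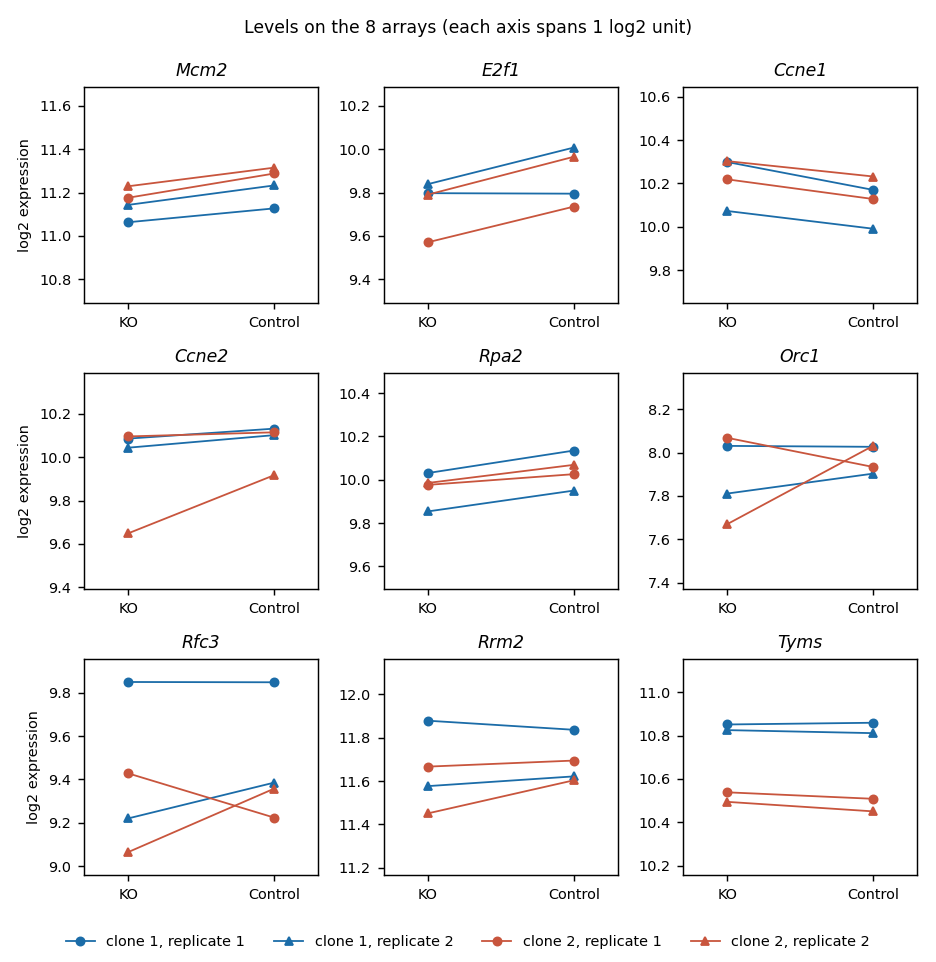
Log2 expression of 9 replication genes on the 8 arrays, with KO-labelled arrays left of Control and a line joining the cultures of 1 set. Every y axis spans 1 log2 unit, the lines of Mcm2 run in parallel, those of Orc1 and Rfc3 cross, and those of Tyms separate by clone (10.49 to 10.54 in clone 2 and 10.82 to 10.85 in clone 1 among KO-labelled arrays).

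The second question was whether replicate numbers 1 and 2 gave the same change. In the sets of number 1 none of 45 members passed (0.963% of all genes did), and in the sets of number 2 none passed either (0.828% of all genes). At an unadjusted p under 0.05, 2 members were called in number 1, Dbf4 and Rfc1, both higher, and 7 in number 2, all lower: Orc1, Prim1, Rfc3, Rrm2, Uhrf1, Ccne2 and E2f1. The share for number 1 was 4.44%, against 14% of all genes (6.94% higher), and that for number 2 was 15.6%, against 13.5% of all genes (6.5% lower). The median member change was 0.0080 in number 1 and -0.06 in number 2. By sign, 20 members were lower in number 1 (44.4%, against 54.3% of all genes), while 38 were lower in number 2 (84.4%, against 45.4% of all genes). Over genes above the median level, the range in which all 45 members lie, the shares lower were 36.2% in number 1 and 64.6% in number 2.

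The shift between replicate numbers also appeared in other well-measured genes. Over the 9969 genes above the median level, the median change was 0.03 in number 1 and -0.03 in number 2, and over all genes it was -0.01 and 0.01. The change in number 2 minus that in number 1 was below 0 for 77.8% of members, 72.4% of genes above the median level and 47.2% of all genes. Its median was -0.06 over members and -0.07 over genes above the median level, so the members' shift was of the size seen in bright genes at large. Whether signal level accounts for it was not tested.

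No member passed the test of the difference between numbers (limma, 0 of 45, and 0% of all genes), and 5 had an unadjusted p under 0.05, all lower in number 2, or 11.1% against 18% of all genes (7.58% lower). The difference was -0.33 ± 0.10 for Rfc3 (limma adjusted p = 0.171), -0.23 ± 0.07 for Dbf4 (0.182), -0.30 ± 0.13 for Orc1 (0.251) and -0.21 ± 0.09 for Prim1 (0.256); Uhrf1 was the fifth, at -0.18 ± 0.08. Without the clone 1, replicate 2 set, Rfc3 passed (-0.40 ± 0.11, limma adjusted p = 0.0381) in a fit that called 7.64% of all genes with 1 residual degree of freedom. Mcm2 had the same change in both numbers (-0.09 each), as did Fen1 (-0.05 each). Across the 45 members, the changes of number 1 and number 2 had a Pearson correlation of 0.0034, against -0.096 over all genes. Both values are given as a description of genes that share arrays. The sign was shared by 25 of 45 members (55.6%, against 37.7% of all genes), with 19 lower in both (18.7% of all genes were) and 6 higher in both (19%). These shares were not computed over genes above the median level.

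**Figure D3:**
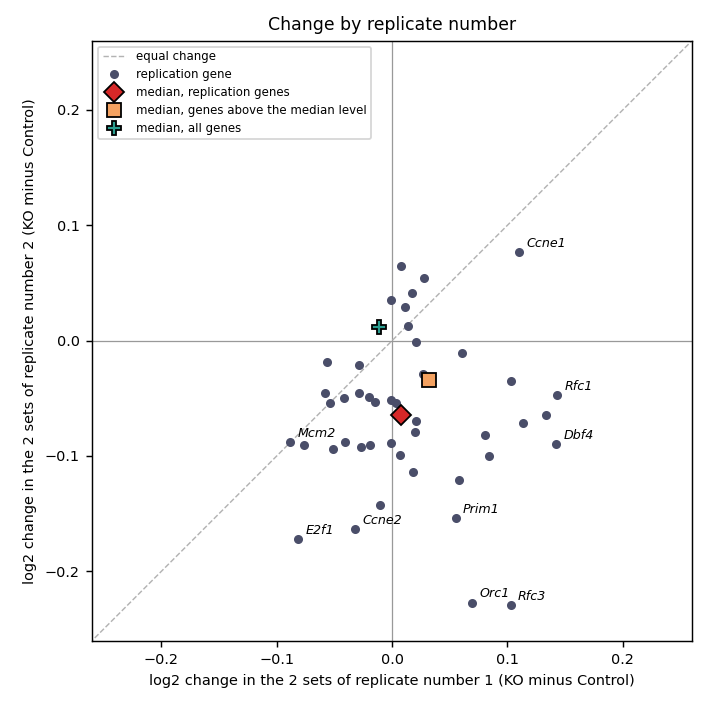
Log2 change in the sets of replicate number 1 (x axis) against that in number 2 (y axis) for each replication gene, with the medians of 3 gene sets as large symbols. Most points lie below the dashed line of equal change, and the median of genes above the median level is displaced to the same side as that of the replication genes.

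Levels themselves were also compared between replicate numbers, in fits chosen after seeing the data. The KO-labelled and Control arrays of a set deviate together, so the comparison rests on 4 set means, 2 per number. On those means, with clone as a covariate and 1 residual degree of freedom before moderation, no member passed (0.0351% of all genes did), and 6 of 45 had an unadjusted p under 0.05 (13.3%, against 15.5% of all genes). Rrm2 was lower on arrays of number 2 than on those of number 1 in both clones and both groups, with a difference of -0.21 ± 0.05 (SE, n = 4 sets) that did not pass (limma adjusted p = 0.236). A fit of the 8 arrays as separate units, which ignores that link and gives too small an SE, called Rrm2 (limma adjusted p = 0.0407), where it called 0.722% of all genes, and its adjusted p ran from 0.000115 to 0.267 over its alternatives. What differed between the numbers was not tested.

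By set, the median member change was 0.02 in clone 1 replicate 1, -0.04 in clone 1 replicate 2, -0.02 in clone 2 replicate 1 and -0.09 in clone 2 replicate 2. The same medians over genes above the median level were 0.05, -0.0024, 0.02 and -0.06. Members therefore lay below those genes in each set by about the same amount, and the lowest set was the same for both.

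The third comparison was between clones. None of 45 members passed in clone 1 (0.181% of all genes did) or in clone 2 (0.682%), and none in the test of the difference of the change (0.01% of all genes, smallest member adjusted p = 1.00 in limma). At an unadjusted p under 0.05 the counts were 0 in clone 1 (3.64% of all genes), 2 in clone 2 (Orc6 and E2f1; 5.17% of all genes) and 0 for the difference (1.97% of all genes). The median change was -0.0063 in clone 1 and -0.04 in clone 2. Pold1 had the widest gap with the smallest p, at -0.21 ± 0.11 (clone 2 minus clone 1), followed by Orc6 at -0.14 ± 0.09.

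Among Control arrays, 1 of 45 members differed between the clones, where 3.97% of all genes did, and at an unadjusted p under 0.05 it was 6 of 45 (13.3%, against 12.3%). The member was Tyms, which makes thymidylate for DNA. Its Control levels were 10.51 and 10.45 in clone 2, against 10.86 and 10.81 in clone 1, a difference of -0.36 ± 0.07 (SE of the fit, n = 2 arrays per clone; limma adjusted p = 0.0141). KO-labelled arrays kept the order, with 10.54 and 10.49 in clone 2 and 10.85 and 10.82 in clone 1. The call is narrow: with the variance trend left out the adjusted p was 0.0505, with arrays centred on their medians 0.0549, and without any 1 set 0.0702 to 0.150, while the difference stayed between -0.33 and -0.39. The main fit drew its spread from all 8 arrays without the set as a block, although the arrays of a set deviate together. With the 4 Control arrays alone, chosen as a check after seeing the data, the difference was -0.36 ± 0.07 (limma adjusted p = 0.0181). That fit, with 2 residual degrees of freedom before moderation, called 1 of 45 members and 6.22% of all genes.

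Next in order, Pole was higher in clone 2 by 0.23 ± 0.08 and Slbp was lower by 0.25 ± 0.08, and neither passed (limma adjusted p = 0.178 and 0.180). Pole measured 10.27 and 10.38 in clone 2, against 10.05 and 10.12 in clone 1. Slbp measured 10.19 and 10.03 in clone 2, against 10.40 and 10.32 in clone 1. For both genes the clones did not overlap among Control arrays. Both were picked by this same difference and each clone had 2 Control arrays, so the lack of overlap adds no support. The share of all genes without such overlap was not computed.

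**Figure D4:**
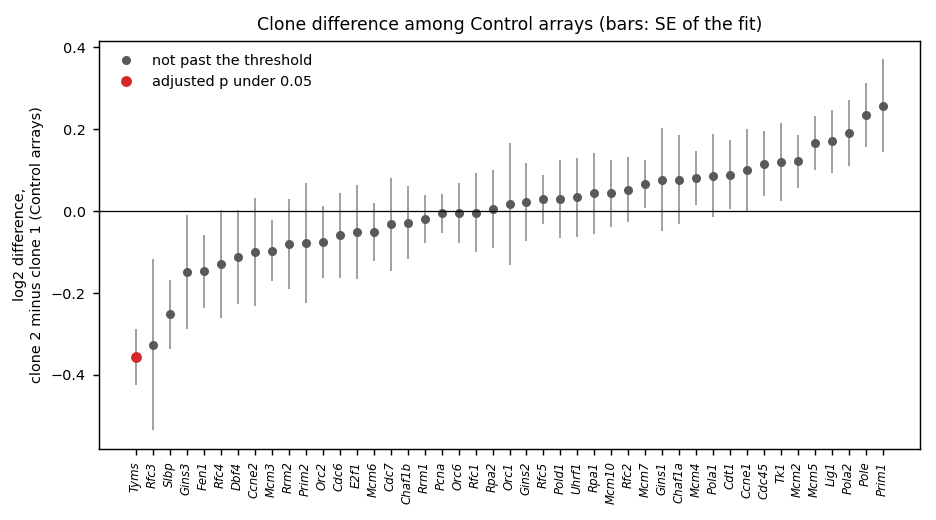
Difference in log2 level between clones among Control arrays (clone 2 minus clone 1, y axis) for each replication gene, ordered by size, with bars for the SE of the fit. Tyms, at -0.36, is the point past the threshold, and the range at the other end reaches 0.26 for Prim1.

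Genes of related processes were read from 3 further lists. Of 26 further replication factors none passed, with a median change of -0.01, and the smallest p was that of Mcmbp, which binds and unloads MCM complexes. It measured 11.04, 10.95, 10.88 and 10.85 on KO-labelled arrays, against 11.07, 11.03, 10.96 and 11.06 on Control arrays (difference -0.10 ± 0.04, limma adjusted p = 0.443). Of 27 measured S phase and E2F target genes outside the 45 (30 listed) none passed, with a median of -0.00572. E2f8, a repressor of the E2F family, had the smallest p there (-0.10 ± 0.04, limma adjusted p = 0.655). Of 29 measured G2 and mitosis genes (30 listed) none passed, with a median of -0.01, and the spindle checkpoint kinase gene Bub1b, at 0.06 ± 0.04, had the smallest p. At an unadjusted p under 0.05 the counts in these lists were 1 of 26, 2 of 27 and 0 of 29, where 6.47% of all genes had such a p.

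Markers of the cells the cultures could hold were followed on the same arrays. In the main fit 0.953% of all genes passed. Progenitor markers averaged 9.70 to 10.57 per KO-labelled array and 9.68 to 10.54 per Control array over 10 of 10 measured genes. Of these, 6 had a fitted change above 0 and 4 below (median 0.03), and 1, Kit, passed. It fell by 0.36 ± 0.05 on the log2 scale (limma adjusted p = 0.00404). Neutrophil markers averaged 6.53 to 7.50 per KO-labelled array and 6.70 to 7.47 per Control array over 8 of 8 genes. Of these, 3 had a fitted change above 0 and 5 below (median -0.04), and 1 passed. Ngp, a neutrophil granule protein gene, fell by 0.45 ± 0.09 on the log2 scale (limma adjusted p = 0.0305). Its sets were uneven, at -0.36 and -0.55 in clone 1 (replicates 1 and 2) and -0.04 and -0.87 in clone 2. The SD of these 4 set differences was 0.35. The arrays lowest in neutrophil markers in each group were those of clone 2, replicate 2, the set with the lowest median change of replication genes. By level, replication genes averaged 10.18 on the Control array of that set, against 10.15 to 10.19 on the other Control arrays. On its KO-labelled array they averaged 10.09, against 10.11 to 10.22 on the other KO-labelled arrays. No macrophage (7 of 8 measured), mast and basophil (8 of 8), erythroid (5 of 8) or lymphoid (6 of 8) marker passed, and these lists, whose signals have no true 0 on an array, averaged between 5.17 and 6.45 on KO-labelled arrays and between 5.22 and 6.33 on Control arrays. At an unadjusted p under 0.05 the counts were 3 of 10 progenitor, 4 of 8 neutrophil, 2 of 7 macrophage and 1 of 8 mast and basophil markers. They were 0 of 5 erythroid and 0 of 6 lymphoid markers, where 6.47% of all genes had such a p. The part of maturing cells in the replication gene values was not tested.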

How the data were processed

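The deposited table held log2 expression values for 35556 probe sets on 8 Affymetrix whole-transcript arrays, 1 per culture, made from 300 ng of total RNA each per the labels' protocols. RMA is named in the submitters' processing notes; the sources used here give neither its version nor a chip definition. That the scale is log2 follows from the range of the deposited values, with array medians of 6.26 to 6.39. The number of arrays limits the precision, and no counts underlie the values.

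Platform annotation gave 1 symbol to 21789 probe sets and several to 1621, the latter unused. The brightest probe set per gene was kept, which left 19938 genes. Symbols were looked up in RefSeq by Entrez identifier, with 21698 matches and none changed.

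All fits used limma 3.58.1 in R 4.3.3 with a variance trend, two-sided tests and p-values adjusted over the 19938 genes by Benjamini-Hochberg (threshold 0.05). The fits of the group comparison and of the replicate number difference were tried on simulated data with independent noise, and the others were not. The comparison of groups had the set as a block, after the series' design text, with 3 residual degrees of freedom plus 9.72 from moderation. Set numbering comes from sample titles. The KO-labelled and Control arrays of a set deviated together (r of 0.724 to 0.817 across genes, each best with its own set). An SE is that of the fit and borrows spread from other genes. Effects per replicate number and per clone came from fits with separate effects and the same block, and the clones were compared among Control arrays without it.

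Members and gene lists were chosen with earlier results of these data known, and so give no independent support. Genes with values on every array were picked by a written rule: per role the smallest p, the 3 largest changes each way, the smallest p for the replicate (4), clone (2) and control clone (3) differences, and Mcm2, Pcna, Ccne1, E2f1 and Rrm2. The other lists give their smallest p. Alternatives covered pairing, variance model, weights, normalization, probe sets, a level filter and leaving out each set.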

Additional observations from a re-analysis of the deposited data

Results flagged for a closer look

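For 26 named genes, the 4 KO-labelled arrays, the 4 Control arrays and the 4 set differences were each a group. Each group was examined for a value far from the other 3, and 7 of 78 were picked out. Chance picks about 1 in 20 unselected, independent groups. These genes were named partly for their changes or p-values and their groups share values, so that rate is no reference for an excess. Ccne2 gave 3 of the 7, all from clone 2, replicate 2. Its level was 9.65 on the KO-labelled array and 9.92 on the Control array, and its set difference was -0.27. The clone 1, replicate 1 set difference stood above the other 3 for E2f1 (0.00238) and for Mcm10 (0.0362). Prim1 was low on the KO-labelled array of clone 1, replicate 2 (9.30), and Rfc1 was high on that of clone 1, replicate 1 (9.96). No member passed the test of a difference in change between the clones.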

How the results depend on the processing

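The count of replication genes past the threshold in the comparison of KO-labelled with Control arrays was 0 in the paired fit and under all 14 alternatives, among them no replicate block (0 members, median change -0.03), clone as the only covariate, and clone with replicate number as covariates. Over those alternatives the median member change ran from -0.05 with arrays centred on their medians to 0.0013 without clone 2, replicate 2. The count of all genes past the threshold, 190, was less stable: 0 without the replicate block, 23 with clone only, 78 with clone and replicate number, 13 without the variance trend, 388 with array weights, and 98, 110 and 418 without clone 1 replicate 2, clone 2 replicate 1 and clone 2 replicate 2. Runx1 no longer passed without the block (adjusted p = 1) or with clone only (0.0617). For the difference between replicate numbers the count was 0 to 1 when a set was left out, the 1 being Rfc3. The count for clones among Control arrays, 1, was 0 without the variance trend, 0 with centred arrays, and 0 without any 1 set, which leaves 1 array in a clone and assumes that it varies like the others; fewer arrays lower what these fits can call. The leave-one-set fits per clone, per number and among controls, and the alternatives for Tyms and Rrm2, were chosen after seeing the data.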

Other observations

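Across the 45 members, the changes of the sets C1R2 and C2R2 had a Pearson correlation of 0.51, while the other pairs of sets lay between -0.15 and 0.20. The 45 genes share arrays, and the correlations between sets were not computed over all genes, so this is a description.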
